A study of Mus musculus with 51 samples.

Results

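The 38 protein-coding Hox genes examined here lie in the 4 Hox clusters of the mouse and were taken by name from the annotation column of the allelic read tables, out of 20698 autosomal protein-coding genes measured in all. On GRCm38 the listed members of HoxA span chr6:52162417-52260880 (10 genes, 98.5 kb), those of HoxB chr11:96194316-96368256 (10 genes, 174 kb), those of HoxC chr15:102921103-103036852 (9 genes, 116 kb) and those of HoxD chr2:74668310-74765142 (9 genes, 96.8 kb). HoxA is read from the minus strand and the other 3 clusters from the plus strand, so that the low-numbered genes sit at the lower end of HoxA and at the higher end of HoxB, HoxC and HoxD. By paralog group, 7 members are anterior (groups 1 to 3), 15 central (groups 4 to 8) and 16 posterior (groups 9 to 13).

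Hox genes encode homeodomain transcription factors that give cells their position along the head-to-tail axis, and each cluster is switched on from its anterior to its posterior end as the body axis forms. Before that, the clusters are a textbook target of Polycomb repression: the PRC2 complex places H3K27me3 over the whole cluster, and many Hox promoters also carry H3K4me3, the mark of Trithorax-group complexes and of active or poised promoters. H3K36me3 is laid down along gene bodies by the elongating polymerase machinery and therefore follows transcription. The epiblast gives rise to the embryo proper, where Hox genes are later used, whereas the extra-embryonic ectoderm (ExE) contributes to the placenta.

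Chromatin was profiled at embryonic day (E) 6.5 by native, micrococcal nuclease-based ChIP-seq from small pools, of 4 embryos for epiblast and 8 for ExE. Hybrid embryos came from B6 mothers and CAST fathers (B6/CAST), from the reciprocal cross (CAST/B6), and from matDKO mothers and CAST fathers (matDKO/CAST). The matDKO mothers were of mixed B6 and 129 background and carried floxed Dnmt3a and Dnmt3b together with Zp3-cre, a driver active in growing oocytes, so that the de novo DNA methyltransferases were removed from the oocyte and not from the father or from the wild-type crosses. Each of the 18 groups of tissue, cross and mark held 2 libraries, which gives 12 libraries per mark, and 15 inputs (9 epiblast, 6 ExE) were sequenced besides. The labels do not say that replicate pools came from separate litters, so p-values measure the spread between these libraries.

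Signal is given in RPKM, a read density scaled to length and to library depth, and levels are compared between genes only on this scale. It was averaged over the promoter (1 kb to each side of the start site) for H3K27me3 and H3K4me3 and over the gene body for H3K36me3. Depth was 10.3 to 22.9 M (mega) mapped reads per ExE library and 3.68 to 14.8 M per epiblast library for H3K27me3, 8.43 to 17.4 M per ExE and 4.01 to 17.9 M per epiblast library for H3K4me3, and, for H3K36me3, 3.36 to 9.71 M per ExE and 2.09 to 12.6 M per epiblast library. The shallowest H3K27me3 library was matDKO/CAST epiblast replicate 2. The labelled tissues were checked with marker lists. H3K36me3 was lower in wild-type ExE at 6 of 9 epiblast markers (6.24% of all genes) and higher at 8 of 9 ExE markers (30.9%). It was also higher in ExE at 8 of 10 visceral endoderm markers, whose summed H3K36me3 was 5.38 to 7.80 RPKM in the 4 wild-type epiblast libraries and 13.1 to 19.5 RPKM in the 4 ExE libraries, with 0 of these markers at 0, and at 2 of 5 ectoplacental cone markers, while 0 of 6 nascent mesoderm markers were called and 1 of 6 decidua markers was lower. For H3K4me3, 6 of 9 epiblast markers were lower, and 4 of 9 ExE markers were higher and 1 lower (7.75% of all genes lower and 1.84% higher). Of visceral endoderm markers 4 of 10 were higher, of ectoplacental cone markers 1 of 5, and of 6 decidua markers 1 was higher and 2 lower. The part of cells from outside the labelled tissue in the Hox results was not tested.

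The promoters of 6 members for which values in every library follow are shown because H3K27me3 and H3K4me3 were measured on them and because their counts of CG dinucleotides differ. Each line holds the 250 bases before the RefSeq start on GRCm38.p6, from 5′ to 3′ in the direction of the gene, with each CG dinucleotide in capitals. Hoxb1 (chr11:96365508-96365757, plus strand) and Hoxd1 (chr2:74762730-74762979, plus strand) are the genes with the smallest H3K27me3 difference in HoxB and HoxD. Hoxa2 (chr6:52164832-52165081, minus strand) has the smallest in HoxA, Hoxc4 (chr15:103034145-103034394, plus strand) and Hoxd9 (chr2:74697513-74697762, plus strand) the largest in HoxC and HoxD, and Hoxb8 (chr11:96281655-96281904, plus strand) is among the few members called for H3K36me3.
Hoxb1: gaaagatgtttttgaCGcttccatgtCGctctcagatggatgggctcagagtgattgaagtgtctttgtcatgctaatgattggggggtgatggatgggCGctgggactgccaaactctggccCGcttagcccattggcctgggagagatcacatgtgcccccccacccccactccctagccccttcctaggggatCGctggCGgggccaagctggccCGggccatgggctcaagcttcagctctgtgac
Hoxd1: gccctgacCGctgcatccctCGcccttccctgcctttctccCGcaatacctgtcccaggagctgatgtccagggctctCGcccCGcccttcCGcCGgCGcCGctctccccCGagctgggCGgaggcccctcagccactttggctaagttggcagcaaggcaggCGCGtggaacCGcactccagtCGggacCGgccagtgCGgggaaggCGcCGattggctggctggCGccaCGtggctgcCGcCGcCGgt
Hoxa2: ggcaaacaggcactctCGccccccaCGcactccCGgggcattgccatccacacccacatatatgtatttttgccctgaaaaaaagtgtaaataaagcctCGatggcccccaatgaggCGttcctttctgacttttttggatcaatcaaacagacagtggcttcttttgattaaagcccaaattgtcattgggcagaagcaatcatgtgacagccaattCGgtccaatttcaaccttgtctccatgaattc
Hoxc4: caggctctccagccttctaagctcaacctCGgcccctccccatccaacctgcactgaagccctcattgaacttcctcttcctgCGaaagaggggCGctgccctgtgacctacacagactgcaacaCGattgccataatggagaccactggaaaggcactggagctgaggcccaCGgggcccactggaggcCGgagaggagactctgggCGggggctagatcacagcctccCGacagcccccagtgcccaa
Hoxd9: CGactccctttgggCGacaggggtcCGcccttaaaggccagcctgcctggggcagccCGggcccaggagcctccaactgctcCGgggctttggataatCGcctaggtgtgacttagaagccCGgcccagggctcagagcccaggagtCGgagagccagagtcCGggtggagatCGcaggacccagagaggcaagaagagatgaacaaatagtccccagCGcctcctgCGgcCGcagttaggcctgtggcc
Hoxb8: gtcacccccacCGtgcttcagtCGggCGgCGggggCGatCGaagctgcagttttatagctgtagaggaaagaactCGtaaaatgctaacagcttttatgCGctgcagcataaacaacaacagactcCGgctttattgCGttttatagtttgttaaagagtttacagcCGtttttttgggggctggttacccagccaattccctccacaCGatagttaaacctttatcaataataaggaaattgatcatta

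These windows held 7 CG in Hoxb1, 24 in Hoxd1, 6 in Hoxa2, 8 in Hoxc4, 13 in Hoxd9 and 12 in Hoxb8. Of all 32851 promoters in the RefSeq table, 46.3%, 12%, 50.4%, 43.0%, 31.5% and 33.5% held at least as many, in the same order. The table held 22 of the 38 members, in 24 entries with 2 to 35 CG (median 12.5, against 6 for all entries).

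H3K27me3 covered all 4 clusters in both tissues. At the 38 promoters the mean over wild-type libraries ran from 5.75 to 16.1 RPKM in epiblast (median 11.6) and from 4.02 to 8.01 RPKM in ExE (median 5.98). The median gene had 0.361 and 0.332 RPKM, and every Hox promoter ranked above the 96.5th percentile of all genes in either tissue. In the inputs the median over the members was 0.394 to 0.580 RPKM in epiblast and 0.383 to 0.451 RPKM in ExE. Hoxa7 was the most heavily marked member in both tissues, and Hoxd1 in epiblast and Hoxb2 in ExE the least. The order of the members was similar in the 2 tissues (Spearman rho = 0.84 over 38 genes, which share libraries and lie next to each other in the same domains).

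In the wild type, H3K27me3 on Hox promoters was lower in ExE than in epiblast. At an adjusted p-value below 0.05 (limma, adjusted over 20698 genes), 35 of 38 members were lower and 0 higher, where 9.58% of all genes were lower and 5.85% higher. Among the 4907 genes with a mean of at least 1 RPKM, 37 members were lower, where 31.7% of those genes were lower and 22.6% higher. The median log2 difference of the members was -0.91, against -0.05 for all genes, and it ranged from -1.19 at Hoxa4 to -0.38 at Hoxd1. The 4 ExE libraries lay below all 4 epiblast libraries at 35 of 38 members, as they did at 12.1% of all genes, and above them at 0 members and 9.49% of all genes. In bulk chromatin, fewer cells that carry the mark and less of the mark per cell cannot be told apart, and neighbouring members share 1 domain and are not independent replicates. The direction held at 38 of 38 members under each of 26 settings and left-out libraries, whereas the number called did not. It fell to 23 and 15 without B6/CAST ExE replicates 1 and 2, to 12 without CAST/B6 ExE replicate 2, to 15 without B6/CAST epiblast replicate 2, and to 18 and 22 without CAST/B6 epiblast replicates 1 and 2, and it stayed between 25 and 37 without any of the other libraries. Calls over all genes fell as well, from 9.58% lower to 5.31% and 4.87% without B6/CAST ExE replicates 1 and 2, 4.01% without CAST/B6 ExE replicate 2, 4.76% without B6/CAST epiblast replicate 2, and 5.13% and 6.4% without CAST/B6 epiblast replicates 1 and 2. Over B6/CAST alone, with 2 libraries per tissue, 2 members were lower (1.66% of all genes), and over CAST/B6 alone 14 were (3.68%). With edgeR and with DESeq2 on recovered reads 37 members were lower (12.6% of all genes with edgeR, where 13.7% were higher, and 14.5% of the genes that DESeq2 tested). With the library medians equalized 35 were (9.7% of all genes lower and 10.1% higher).

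**Figure D1:**
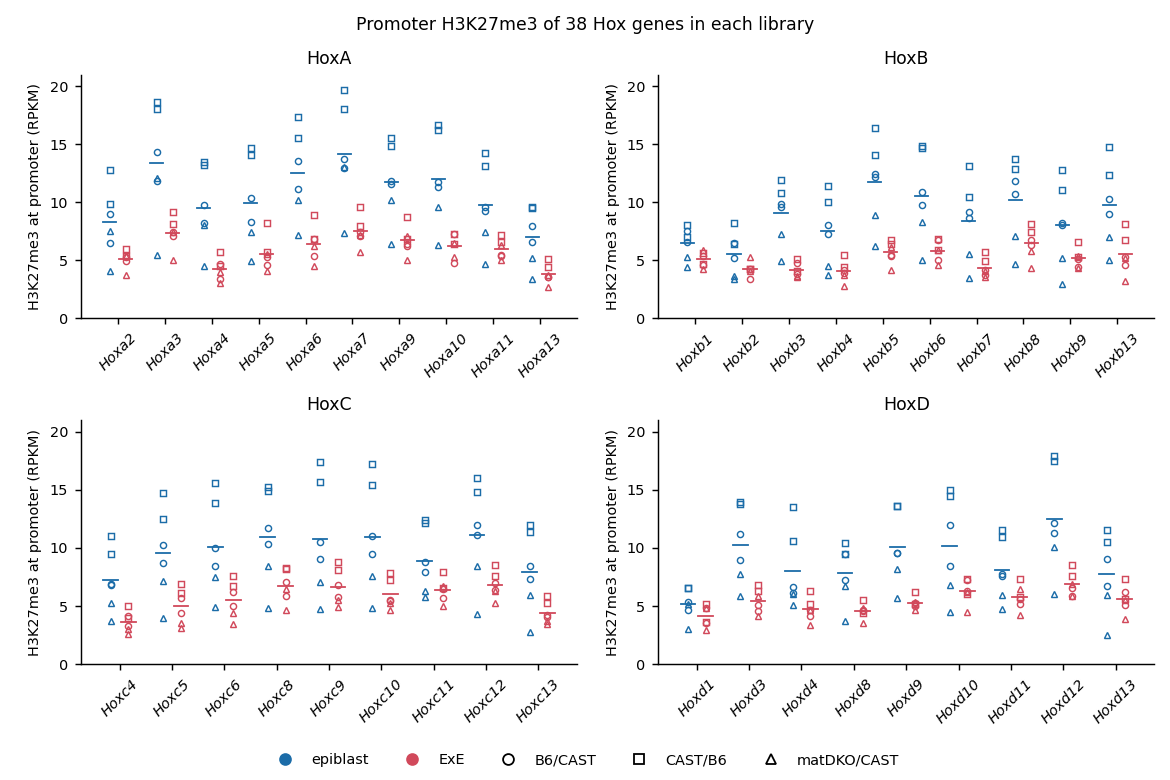
H3K27me3 at the promoters of the 38 Hox genes in each of 12 libraries, in RPKM on the vertical axis, with the genes of a cluster in order along each of 4 panels. Points are single libraries, coloured by tissue with a symbol per cross, and short horizontal lines mark the mean over the 6 libraries of a tissue. The wild-type epiblast points lie above the wild-type ExE points without overlap at 35 of the 38 genes, while the matDKO/CAST epiblast points reach down into the ExE range.

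The member with the largest difference and the one with the smallest were followed through the libraries in each cluster. Hoxa4, which takes part in patterning the neck vertebrae, stood at 8.19 and 9.78 RPKM in B6/CAST epiblast, at 13.2 and 13.4 RPKM in CAST/B6 epiblast, at 4.66 and 3.42 RPKM in B6/CAST ExE and at 5.68 and 4.53 RPKM in CAST/B6 ExE (means 11.2 ± 2.59 and 4.57 ± 0.922 RPKM, SD, n = 4 each). Its groups did not overlap, and the log2 difference was -1.19 ± 0.20 (SE, limma adjusted p = 0.0054). Hoxa2, a selector gene of the second pharyngeal arch and hindbrain, had 6.51 and 9.01 RPKM in B6/CAST epiblast, 12.7 and 9.86 in CAST/B6 epiblast, 4.93 and 5.23 in B6/CAST ExE and 5.95 and 5.34 in CAST/B6 ExE. The lowest epiblast library still lay above the highest ExE library, and the difference of -0.74 ± 0.21 passed with all libraries (limma adjusted p = 0.043) but not when any 1 of the 8 wild-type libraries was left out (adjusted p 0.052 to 0.151).

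In HoxB, Hoxb3, a hindbrain and pharyngeal gene, had 9.84, 9.56, 12 and 10.8 RPKM in the B6/CAST and CAST/B6 epiblast libraries against 4.74, 3.81, 5.12 and 4.10 in the ExE libraries. The lowest epiblast value was well above the highest ExE value, and the log2 difference was -1.16 ± 0.16 (limma adjusted p = 0.0023). Hoxb1, which specifies a single hindbrain segment, had 7.55, 6.56, 8.00 and 6.99 RPKM in epiblast and 5.34, 4.61, 5.66 and 4.67 RPKM in ExE. These groups did not overlap either, yet the difference of -0.48 ± 0.15 missed the threshold (limma adjusted p = 0.056), and it passed when any 1 matDKO/CAST library was left out (adjusted p 0.035 to 0.048).

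In HoxC the largest difference was at Hoxc4, with 6.81, 6.93, 11.1 and 9.45 RPKM in epiblast and 4.16, 3.26, 4.98 and 3.94 in ExE (-0.97 ± 0.15, limma adjusted p = 0.0042). Both CAST/B6 epiblast libraries were higher than both B6/CAST ones, and all 4 were above ExE. Hoxc11, a gene of the lumbosacral region and hindlimb, had 7.94, 8.76, 12.4 and 12.2 RPKM in epiblast and 6.48, 5.72, 7.92 and 6.54 in ExE. The lowest epiblast and the highest ExE library nearly met, and the difference of -0.58 ± 0.15 (limma adjusted p = 0.030) was lost on leaving out any 1 wild-type library (adjusted p 0.061 to 0.126).

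In HoxD, Hoxd9 had 9.55, 9.56, 13.6 and 13.6 RPKM in epiblast and 5.22, 5.03, 6.20 and 5.19 RPKM in ExE (-1.02 ± 0.15, limma adjusted p = 0.0036), with a wide gap between the tissues. Hoxd1, at the anterior end of the cluster, had 5.30, 4.62, 6.54 and 6.55 RPKM in epiblast and 4.85, 3.54, 5.20 and 3.65 RPKM in ExE. Its groups overlapped and its difference of -0.38 ± 0.21 was not called (limma adjusted p = 0.25). Hoxd13, the digit and genital gene at the other end of the cluster, was not called either, with means of 9.46 and 6.08 RPKM (-0.59 ± 0.24, limma adjusted p = 0.14).

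All 10 HoxA members, 9 of 10 HoxB, 9 of 9 HoxC and 7 of 9 HoxD members were called lower, with median log2 differences of -0.93, -0.90, -0.84 and -0.82. By position, 5 of 7 anterior, 15 of 15 central and 15 of 16 posterior members were called, with medians of -0.74, -0.95 and -0.86. The 3 members that were not called, Hoxb1, Hoxd1 and Hoxd13, are all the first or last gene of a cluster. Hoxa2, Hoxa13, Hoxb13, Hoxc4 and Hoxc13 lie at cluster ends too and were called.

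**Figure D2:**
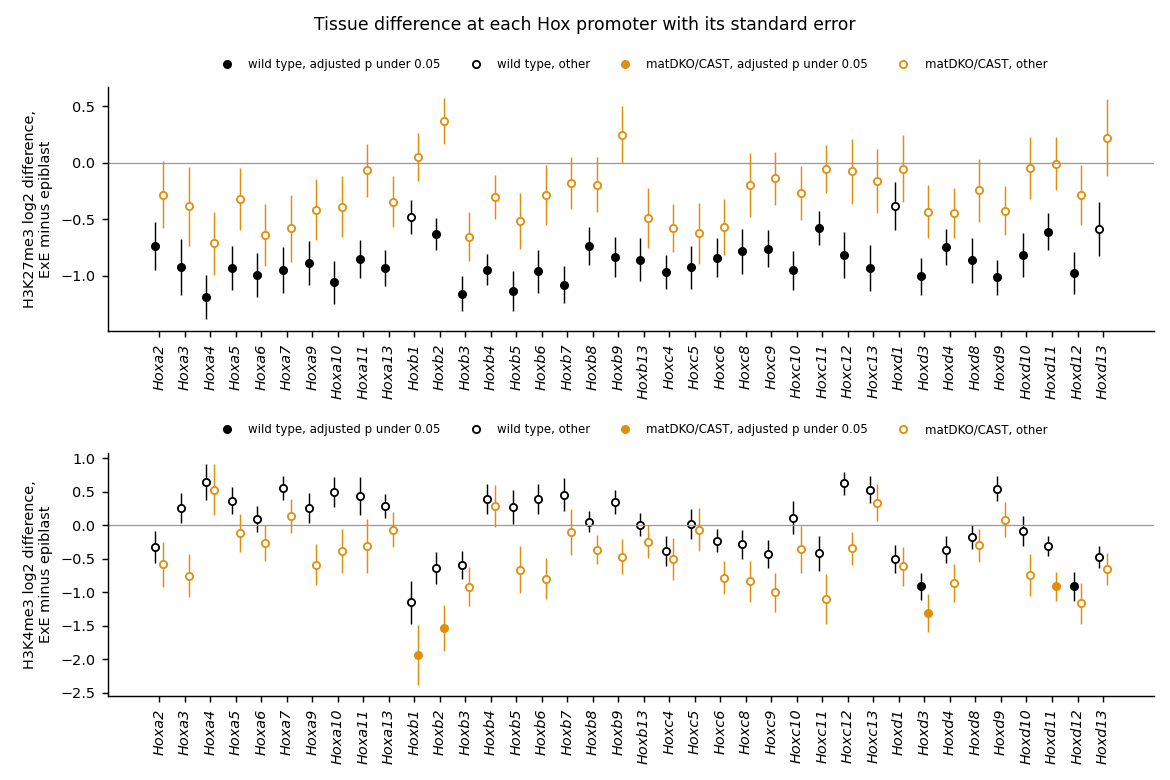
Log2 difference in promoter signal (ExE minus epiblast, with its SE) for each of the 38 Hox genes, for H3K27me3 and H3K4me3, in the wild type and in matDKO/CAST. Filled points have a limma adjusted p below 0.05: 35 for H3K27me3 and 2 for H3K4me3 in the wild type, 0 and 4 in matDKO/CAST.

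Over whole clusters the wild-type H3K27me3 level in epiblast was about double that in ExE. HoxA averaged 13 ± 2.61 RPKM in epiblast and 6.22 ± 0.954 in ExE, HoxB 8.72 ± 1.40 and 4.10 ± 0.634, HoxC 12.6 ± 3.04 and 6.11 ± 1.11, and HoxD 10.2 ± 2.31 and 5.41 ± 0.742 (SD, n = 4 each). The ratios of epiblast to ExE were 2.09, 2.13, 2.07 and 1.88. The tissues did not overlap in any cluster, and each exact two-sided permutation test gave p = 0.029, the smallest that 4 against 4 libraries allow (adjusted p = 0.086 over 12 tests of 4 clusters and 3 marks). With matDKO/CAST included, 6 against 6, the means were 11.2 ± 3.70 and 5.75 ± 1.09 RPKM in HoxA, 7.37 ± 2.44 and 3.82 ± 0.681 in HoxB, 10.6 ± 4.12 and 5.48 ± 1.34 in HoxC, and 8.64 ± 3.05 and 5.02 ± 0.924 in HoxD. The exact permutation p-values were 0.0087, 0.0087, 0.017 and 0.022 (adjusted p = 0.052 for all 4 clusters). They passed (exact permutation test, adjusted p = 0.013 for all 4) when matDKO/CAST epiblast replicate 2, the lowest and shallowest epiblast library, was left out.

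**Figure D3:**
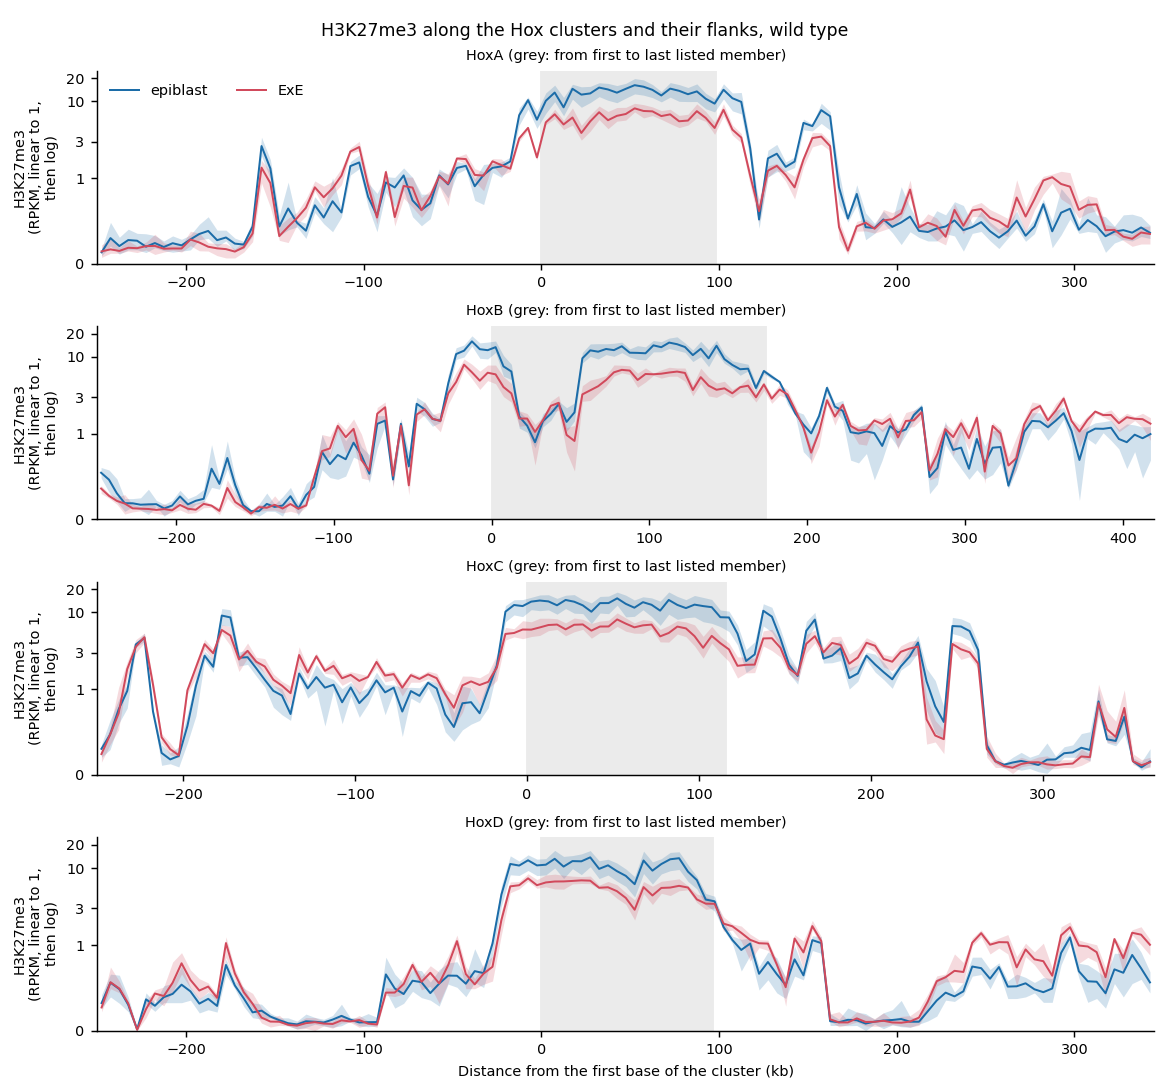
Wild-type H3K27me3 along the 4 clusters and 250 kb to each side in bins of 5 kb, as mean RPKM with a band from the lowest to the highest of 4 libraries per tissue. The horizontal axis is the distance from the first base of the cluster in kb, the vertical axis is linear up to 1 RPKM and logarithmic above, and the grey area spans the listed members. Epiblast lies above ExE within the clusters and below it over several stretches of the flanks.

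The profile was a plateau in HoxA, HoxC and HoxD. HoxB held a low stretch between Hoxb13 and Hoxb9 in both tissues. Of 97 bins of 5 kb within the clusters, 17 were lower in ExE and 0 higher (limma, adjusted over all autosomal bins), against 1.21% lower and 3.9% higher over all autosomal bins. Of these 17, 2 lay in HoxA, 10 in HoxB, 3 in HoxC and 2 in HoxD. The median log2 difference of the bins was -0.96, -0.98, -0.96 and -0.82 in HoxA, HoxB, HoxC and HoxD. The number of bins called depended on the setting: 88 of 97 were lower with enrichment normalization (1.62% of all bins), 28 with a pseudocount of 1 (1.24%) and 32 with the replicate number as a block (1.25%).

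Outside the clusters the difference varied with the cluster, the side and the distance. The analysis of distance bands was added after the data had been seen, and its 32 exact permutation tests of 6 against 6 libraries were adjusted together. In the 25 kb next to the cluster H3K27me3 was still lower in ExE on both sides of HoxA (2.36 ± 0.323 against 4.66 ± 1.11 RPKM at the lower end and 3.34 ± 0.553 against 6.81 ± 2.27 at the higher end, SD, n = 6 each, exact permutation test, adjusted p = 0.012 and 0.019). The same held on both sides of HoxC (3.50 against 6.40 and 2.53 against 5.07 RPKM, exact permutation test, adjusted p = 0.035 and 0.027), and at the lower, Evx2 side of HoxD (4.93 against 8.61 RPKM, exact permutation test, adjusted p = 0.035). At the lower end of HoxB it was 5.38 against 10.7 RPKM (exact permutation test, adjusted p = 0.027).

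Other bands were higher in ExE. From 25 to 50 kb below HoxC the mean was 1.02 ± 0.168 RPKM in ExE and 0.694 ± 0.132 in epiblast, and from 50 to 100 kb it was 1.43 ± 0.226 and 0.972 ± 0.088 (exact permutation test, adjusted p = 0.019 for both). Above HoxD it was 1.50 ± 0.243 in ExE and 1.17 ± 0.144 RPKM in epiblast within 25 kb and 0.792 ± 0.084 against 0.501 ± 0.041 RPKM from 100 to 200 kb (exact permutation test, adjusted p = 0.035 and 0.012). From 100 to 200 kb above HoxA it was 0.676 ± 0.060 against 0.481 ± 0.069 RPKM, and above HoxB 1.35 ± 0.203 against 0.973 ± 0.139 RPKM (exact permutation test, adjusted p = 0.012 and 0.017). In each of these bands ExE was the higher tissue. Bands at like distances were lower in ExE, from 25 to 50 kb (1.26 against 2.18 RPKM) and 50 to 100 kb above HoxA (1.29 against 2.15 RPKM), and from 25 to 50 kb above HoxB (1.72 against 2.16 RPKM; exact permutation test, adjusted p = 0.012 for all 3).

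From 50 to 100 kb above HoxC the mean was 2.99 ± 0.627 RPKM in ExE and 2.40 ± 0.503 RPKM in epiblast, and from 100 to 200 kb below HoxC 2.31 ± 0.360 and 2.06 ± 0.314 RPKM, and neither difference passed (SD, n = 6 each, exact permutation test, adjusted p = 0.14 and 0.26). Of 320 bins of 5 kb within 200 kb of the clusters, 20 were higher in ExE and 22 lower (3.9% and 1.21% of all bins), around HoxC 8 and 7, around HoxD 7 and 1, around HoxB 3 and 3 and around HoxA 2 and 11. With enrichment normalization 35 were higher and 47 lower (3.8% and 1.62% of all bins), 21 and 25 with a pseudocount of 1 (3.83% and 1.24%), and with the replicate block 39 and 27 (4.92% and 1.25%).

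The peaks that the authors called, 1 list per tissue and wild-type cross, were set against these levels. A single H3K27me3 peak covered 100% of every cluster in both tissues and both wild-type crosses. In B6/CAST and CAST/B6 it was 254 and 228.5 kb long over HoxA in ExE against 180.5 and 182.5 kb in epiblast, 323.5 and 564 kb against 277.5 and 296.5 kb over HoxB, 428.5 and 434 kb against 260 and 261.5 kb over HoxC, and 188.5 and 193.5 kb against 140 and 143 kb over HoxD. Each ExE peak was longer than both epiblast peaks of its cluster. The ends differed unequally. Past the lower end of the cluster, in B6/CAST and CAST/B6, the HoxC peak reached 198 kb in both ExE crosses and 24.6 and 25.1 kb in epiblast, the HoxA peak 89.9 and 64.4 kb against 60.9 and 61.9 kb, the HoxB peak 50.3 and 62.8 kb against 49.8 and 50.3 kb, and the HoxD peak 31.3 and 35.8 kb against 28.3 and 29.3 kb. Past the higher end, the HoxD peak reached 60.4 and 60.9 kb in ExE and 14.9 and 16.9 kb in epiblast, the HoxA peak 65.6 kb in both ExE crosses against 21.1 and 22.1 kb, and the HoxB peak 99.2 and 327 kb against 53.7 and 72.2 kb. The HoxC peak reached 115 and 120 kb past its higher end in ExE and 120 and 121 kb in epiblast, so this end was not farther out in ExE. Within 200 kb to each side of HoxD, H3K27me3 peaks covered 210 and 222 kb in ExE and 58.3 and 57.3 kb in epiblast. The median depth of H3K27me3 libraries was 14.6 M reads in ExE and 11.4 M in epiblast, and the part of depth in these lengths was not tested.

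All 38 promoters lay in a peak of H3K27me3 and in a peak of H3K4me3 in either tissue and either wild-type cross. Both marks were present at 21.9% and 24.2% of all promoters in epiblast (B6/CAST and CAST/B6) and at 28% and 29.8% in ExE. None of the 38 lay in an H3K36me3 peak, where 10.6% and 20% of all promoters did in epiblast and 21.7% and 37.6% in ExE.

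H3K4me3 on the Hox promoters was low for promoters in general. The wild-type mean over libraries ran from 0.850 to 7.68 RPKM in epiblast (median 3.16) and from 0.528 to 8.85 RPKM in ExE (median 3.05), where the median gene had 9.56 and 7.75 RPKM. In epiblast 0 and in ExE 2 members lay above the median gene. Hoxd1 in epiblast and Hoxb4 in ExE had the highest level, and Hoxb8 in epiblast and Hoxd12 in ExE the lowest. Members with more H3K27me3 had less H3K4me3 (Spearman rho = -0.88 in epiblast and -0.66 in ExE over 38 genes, whose promoters share libraries and partly overlap).

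H3K4me3 differed little between the tissues over the members as a whole. In the wild type 0 were higher in ExE and 2 were lower, Hoxd3 and Hoxd12, a share below the 7.75% of all genes that were lower (1.84% were higher), and the median log2 difference was 0.04 (-0.02 for all genes). Replicate numbers marked H3K4me3 libraries that deviated together, and with the replicate number as a block 0 were higher and 1, Hoxb1, was lower (0.971% and 4.78% of all genes). The scaling moved the split: 14 members were higher and 3 lower with the library medians equalized (35% and 8.74% of all genes), which shifted the median of all genes to 0.27. The split was 13 and 7 with edgeR (6.99% and 14.7% of all genes) and 11 and 6 with DESeq2 (10.1% and 18.5% of the genes it tested). It was 3 and 4 with enrichment normalization (8.33% and 12.5% of all genes), and 6 and 6 among genes with at least 1 RPKM (3.09% and 15.5% of those).

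By cluster, 9 of 10 HoxA members and 7 of 10 HoxB members had a positive log2 difference (medians 0.33 and 0.16), and 5 of 9 HoxC and 8 of 9 HoxD members a negative one (medians -0.23 and -0.37). With library medians equalized the HoxC median was 0.05 and 6 of 9 HoxD members were negative (median -0.08). Of the 7 anterior members 6 were negative (median -0.59), while central and posterior members had medians of 0.09 and 0.19. Only Hoxd3 and Hoxd12 of these were called.

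The H3K4me3 values of 3 members were looked at by library after their results had been seen. Hoxd3, a gene of the neck skeleton, had 3.24 and 4.34 RPKM in B6/CAST epiblast, 1.67 and 1.79 in CAST/B6 epiblast, 1.47 and 1.40 in B6/CAST ExE and 0.625 and 1.21 in CAST/B6 ExE. It was the only member whose tissues did not overlap (8.35% of all genes had ExE lower without overlap and 3.03% higher), and its log2 difference was -0.91 ± 0.20 (limma adjusted p = 0.022, 0.11 with the replicate block and 0.57 at the 5′ end of the gene instead of the chosen start). Hoxd12, a limb gene, had 1.45, 2.89, 1.01 and 0.747 RPKM in epiblast and 0.669, 0.828, 0.25 and 0.365 in ExE (-0.91 ± 0.22, limma adjusted p = 0.033, and 0.11 with the block).

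Hoxb1 had 6.45, 7.03, 10.1 and 2.99 RPKM in epiblast and 2.56, 1.82, 2.54 and 3.17 in ExE. CAST/B6 epiblast replicate 3 alone lay within the ExE range, and the log2 difference of -1.15 ± 0.32 (limma adjusted p = 0.057) passed without that library (adjusted p = 0.0048) and with the block (adjusted p = 0.038). The Hoxd3 and Hoxd12 calls were both lost without B6/CAST ExE replicate 1 or 2, CAST/B6 ExE replicate 1, B6/CAST epiblast replicate 2, or CAST/B6 epiblast replicate 2 or 3 (adjusted p 0.054 to 0.126), and that of Hoxd12 also without CAST/B6 ExE replicate 2 or either matDKO/CAST ExE library (adjusted p 0.055 to 0.065).

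**Figure D4:**
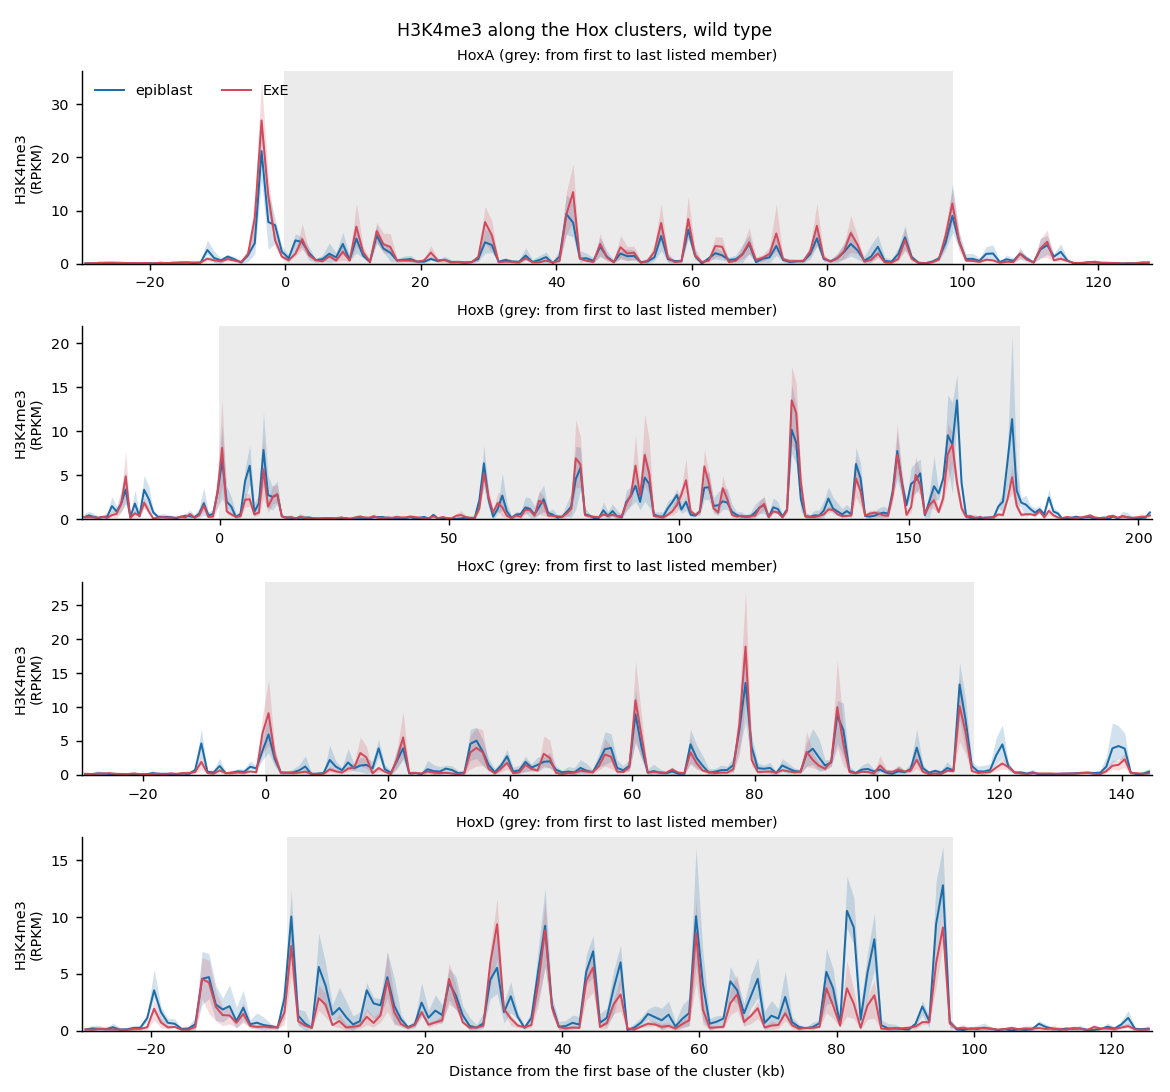
Wild-type H3K4me3 along the 4 clusters and 30 kb to each side in 1 kb windows, as mean RPKM over 4 libraries with a band from the lowest to the highest. The horizontal axis is the distance from the first base of the cluster in kb. Peaks of H3K4me3 stand at the same positions in both tissues, and in HoxD the ExE line lies below the epiblast line over much of the cluster.

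The mean H3K4me3 over the HoxD cluster was 2.79 ± 0.83 RPKM in epiblast and 1.64 ± 0.358 RPKM in ExE over all crosses (exact permutation test, n = 6 each, p = 0.022, adjusted p = 0.052) and 2.48 against 1.61 RPKM in the wild type (exact permutation test, n = 4 each, adjusted p = 0.41). These tests leave the cross out of account, so their spread includes differences between crosses. Within each cross both epiblast libraries lay above both ExE libraries. They had 3.04 and 3.28 against 2.03 and 1.88 RPKM in B6/CAST and 1.74 and 1.84 against 1.01 and 1.51 in CAST/B6. In matDKO/CAST they had 3.83 and 3.02 against 1.78 and 1.65 RPKM. HoxA averaged 2.11 and 2.14 RPKM, HoxB 1.85 and 1.41 RPKM and HoxC 2.10 and 1.65 RPKM over all crosses, in epiblast and ExE (exact permutation tests, adjusted p 0.18 to 0.94). Within clusters 9 of 97 bins of 5 kb were lower in ExE and 0 higher (limma, 0.919% of all bins lower), 6 of them in HoxD, 2 in HoxB and 1 in HoxC, and with the replicate block 1 was lower. In the flanks 9 of 320 bins were lower, and 3 with the block. Called H3K4me3 peaks covered more of each cluster in epiblast than in ExE in both crosses, by little for HoxB in CAST/B6. In B6/CAST 1 peak covered 100% of HoxA and 1 covered 100% of HoxC in epiblast, against 4 peaks over 89.8% and 5 peaks over 84.9% in ExE, and 94.7% of HoxD was covered in epiblast and 79.2% in ExE. In CAST/B6 the covered shares were 84.3%, 70.2% and 80.2% in epiblast and 78.7%, 52.5% and 62.7% in ExE for HoxA, HoxC and HoxD. Of HoxB 71.3% was covered in epiblast and 64.1% in ExE in B6/CAST, and 52.6% and 51.7% in CAST/B6.

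Gene bodies of the members carried little H3K36me3. The wild-type median over members was 0.309 RPKM in epiblast and 0.321 RPKM in ExE, where the median gene had 0.468 and 0.528 RPKM, and in the inputs the median over members was 0.373 to 0.562 RPKM in epiblast and 0.430 to 0.476 RPKM in ExE. The wild-type median was below the lowest input median in either tissue, whereas in single libraries the median over members reached 0.447 RPKM in CAST/B6 ExE replicate 1 and 0.389 RPKM in B6/CAST epiblast replicate 2, within the range of the inputs. Hoxb8 and Hoxa13 were called higher in ExE and Hoxa6 lower, that is 2 and 1 of 38, against 30.9% and 6.24% of all genes, whose median log2 difference was 0.10 (0.00 for the members). The split was 0 higher and 8 lower with edgeR (20.8% and 20.6% of all genes). It was 0 and 1 with DESeq2 (21.5% and 15.6% of the genes it tested), which gave no adjusted p for 17 members. It was 5 and 0 with enrichment normalization (10.5% and 5.57% of all genes), and 0 and 1 with library medians equalized (21.4% and 12%).

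Hoxb8 had 0.178, 0.207, 0.323 and 0.294 RPKM in the B6/CAST and CAST/B6 epiblast libraries and 0.322, 0.115, 0.577 and 0.782 in ExE. The groups overlapped, with B6/CAST ExE replicate 2 the lowest of all, and the difference was 0.29 ± 0.09 (limma adjusted p = 0.044). Hoxa13, a gene of the hand, foot and hindgut, had 0.0557, 0.238, 0.135 and 0.198 RPKM in epiblast and 0.172, 0.251, 0.464 and 0.607 in ExE (0.39 ± 0.13, limma adjusted p = 0.044). Here 3 of the 4 ExE libraries lay above all epiblast libraries, B6/CAST replicate 2 by a small margin, and B6/CAST ExE replicate 1 overlapped with epiblast.

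Hoxa6 had 0.445, 0.424, 0.466 and 0.377 RPKM in epiblast and 0.230, 0.191, 0.309 and 0.270 in ExE, without overlap (5.81% of all genes had ExE lower without overlap and 25.4% higher), and its difference was -0.31 ± 0.07 (limma adjusted p = 0.011). The Hoxa6 call held when any 1 library was left out, but not with enrichment normalization (adjusted p = 0.13) or with the input subtracted (adjusted p = 0.10). Those of Hoxb8 and Hoxa13 were lost without B6/CAST ExE replicate 1, CAST/B6 ExE replicate 2, B6/CAST epiblast replicate 1, either CAST/B6 epiblast library or either matDKO/CAST epiblast library (adjusted p 0.056 to 0.135). The Hoxb8 call was also lost without B6/CAST epiblast replicate 2 or either matDKO/CAST ExE library (adjusted p 0.058 to 0.088), and the Hoxa13 call without B6/CAST ExE replicate 2 or CAST/B6 ExE replicate 1 (adjusted p 0.064 to 0.119). Cluster means of H3K36me3 lay between 0.277 and 0.337 RPKM in ExE and between 0.287 and 0.307 RPKM in epiblast (exact permutation tests over 6 against 6 libraries, adjusted p 0.74 to 0.94).

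In matDKO/CAST the H3K27me3 levels of epiblast and ExE lay closer together than in the wild type, most of all in epiblast replicate 2, the shallowest library. The median over the 38 promoters was 7.22 and 4.72 RPKM in the matDKO/CAST epiblast libraries and 5.48 and 4.20 RPKM in the ExE libraries, against 8.83, 9.67, 13.9 and 13 RPKM in wild-type epiblast and 5.41, 4.99, 7.04 and 5.98 RPKM in wild-type ExE. Both matDKO/CAST epiblast libraries were below every wild-type epiblast library, and replicate 2 was within the ExE range. The median log2 difference over both replicates was -0.29 (0.08 for all genes) and 34 of 38 members were negative. The median log2 level over members was 2.95 and 2.38 in epiblast replicates 1 and 2 and 2.58 and 2.23 in ExE replicates 2 and 3. The size of the difference thus depends on epiblast replicate 2. Limma called 0 members (6 at an unadjusted p below 0.05, where 1.11% of all genes were called lower and 0.715% higher). EdgeR called 12 (5.4% of all genes) and DESeq2 14 (9.57% of the genes it tested). Hoxa4 had 8.04 and 4.53 RPKM in matDKO/CAST epiblast and 4.01 and 3.04 in ExE (-0.71 ± 0.28, limma adjusted p = 0.19). The 4 members with a positive difference were Hoxb1, Hoxb2, Hoxb9 and Hoxd13 (0.05 to 0.37).

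Tested directly, the tissue difference was not shown to differ from the wild type. The interaction was positive at 38 of 38 members (median 0.59, 0.12 for all genes), and 0 were called by limma (8 at an unadjusted p below 0.05, lowest adjusted p = 0.26), by edgeR (3 unadjusted) or by DESeq2 (4 unadjusted). Limma called 0 of all 20698 genes for this interaction, with 9.74% higher at an unadjusted p below 0.05. It was 1.00 ± 0.25 at Hoxb2 (limma adjusted p = 0.26) and 1.08 ± 0.31 at Hoxb9 (adjusted p = 0.30). Set against B6/CAST, which has the same direction of the cross, the H3K27me3 log2 difference of matDKO/CAST epiblast was negative at 38 of 38 members (median -0.64, -0.12 for all genes) with 0 called (limma, 24 at an unadjusted p below 0.05, lowest adjusted p = 0.19, and 0 by edgeR or DESeq2 with 15 and 16 unadjusted). The median log2 level over members was 3.22 and 3.35 in the B6/CAST epiblast libraries and 2.95 and 2.38 in matDKO/CAST epiblast replicates 1 and 2. The size of this difference thus depends on matDKO/CAST replicate 2. In ExE the median difference was -0.15, with 0 called by limma (0 unadjusted), edgeR (3 unadjusted) or DESeq2 (4 unadjusted). Limma called 0 of all 20698 genes in either tissue, with 12% lower at an unadjusted p below 0.05 in epiblast and 1.93% in ExE. These comparisons share libraries with the wild-type comparison.

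For H3K4me3, 4 members were lower in matDKO/CAST ExE than in matDKO/CAST epiblast by limma, where 4.83% of all genes were lower and 0.522% higher, and 0 with the replicate block. They were Hoxb1 (-1.94 ± 0.45, adjusted p = 0.043), Hoxb2 (-1.54 ± 0.35, adjusted p = 0.039), Hoxd3 (-1.31 ± 0.28, adjusted p = 0.032) and Hoxd11 (-0.91 ± 0.22, adjusted p = 0.049). Hoxb1 had 6.43 and 4.91 RPKM in matDKO/CAST epiblast and 1.21 and 0.989 RPKM in ExE, and Hoxb2 6.43 and 3.24 against 1.04 and 1.50 RPKM, without overlap in either. Leaving out B6/CAST ExE replicate 1 or 2, either matDKO/CAST ExE library or matDKO/CAST epiblast replicate 1 left 0 called, and leaving out either CAST/B6 ExE library, either B6/CAST epiblast library or matDKO/CAST epiblast replicate 2 left 2. The interaction with the wild-type difference was negative at 38 of 38 members (median -0.48, 0.02 for all genes) with 0 called by limma (5 unadjusted), edgeR (18 unadjusted) or DESeq2 (8 unadjusted). Limma called 0 of all 20698 genes for it, with 1.28% lower at an unadjusted p below 0.05. No unadjusted share of all genes is given for edgeR or DESeq2 here or elsewhere. An excess at the members cannot be read from their unadjusted counts. H3K36me3 was lower in matDKO/CAST ExE at Hoxa6 (-0.53 ± 0.10, limma adjusted p = 0.020), 1 of 38 members where 1.79% of all genes were lower and 11.8% higher. Without either matDKO/CAST ExE library or without matDKO/CAST epiblast replicate 2, 0 members were lower. The H3K36me3 interaction was called at 0 members (limma, 4 lower unadjusted, and 0 by edgeR or DESeq2 with 0 unadjusted), where limma called 0.00483% of all genes lower and 0 higher. At an unadjusted p below 0.05 limma had 4.26% of all genes lower and 2.43% higher for it. Against B6/CAST, 0 members were called in matDKO/CAST epiblast or ExE for H3K4me3 (limma, 2 and 1 unadjusted, 0.00483% of all genes lower in either tissue; edgeR 0 with 4 and 4 unadjusted, DESeq2 0 with 2 and 2). For H3K36me3 0 were called too (limma, 10 and 1 unadjusted, edgeR 0 with 10 and 0, DESeq2 0 with 3 and 0), where in epiblast 0.00966% of all genes were higher and 0.0387% lower and in ExE 0.0338% lower. Of the 10 in epiblast, 9 were lower and 1 higher. At an unadjusted p below 0.05 limma had 4.71% of all genes higher and 4.12% lower for H3K36me3 in epiblast, and 4.97% and 12.4% in ExE. For H3K4me3 it had 1.25% and 0.493% in epiblast, and 0.623% and 1.7% in ExE.

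Levels in the reciprocal crosses were set side by side. The log2 difference of H3K27me3 between CAST/B6 and B6/CAST epiblast was positive at 38 of 38 members (median 0.49, 0.02 for all genes), with 0 called by limma (9 unadjusted) or edgeR (13 unadjusted) and 4 by DESeq2 (6.05% of the genes it tested). Limma called 0 of all 20698 genes for H3K27me3 in either tissue, with 7.57% higher at an unadjusted p below 0.05 in epiblast and 2.77% in ExE. In ExE its median was 0.26, with 0 called by limma (0 unadjusted), edgeR (1 unadjusted) or DESeq2 (1 unadjusted). That of H3K4me3 was negative at 38 of 38 members in epiblast and 35 of 38 in ExE (medians -0.85 and -0.76, 0.03 and 0.01 for all genes). Limma called 0 of these (25 and 20 unadjusted) and 0 of all 20698 genes (6.1% and 9.77% lower unadjusted). EdgeR called 35 lower in epiblast (9.81% of all genes) and 27 lower and 1 higher in ExE (12% and 7.04%). DESeq2 called 31 lower in epiblast (13.5% of the genes it tested), and 23 lower and 1 higher in ExE (18.4% and 10.4%). The median over members was 4.23 and 4.30 RPKM in B6/CAST epiblast, 1.67 and 2.20 in CAST/B6 epiblast, 4.27 and 3.12 in B6/CAST ExE and 1.80 and 2.76 in CAST/B6 ExE. Cross and any difference in the preparation of its pools cannot be told apart here. The H3K36me3 difference was positive at 15 and negative at 23 members in epiblast (median -0.02) and positive at 36 and negative at 2 in ExE (median 0.34). For H3K36me3, 5 members (Hoxb6, Hoxb8, Hoxc4, Hoxc6 and Hoxd1) were higher in CAST/B6 ExE (0.38 to 0.79, limma adjusted p = 0.046 each), where 1.79% of all genes were and 2.87% were lower. This fell to 0 members with the replicate block, with a pseudocount of 0.1, without any 1 ExE library or without either CAST/B6 epiblast library. In epiblast 0 were called (limma and edgeR, 0 and 4 unadjusted, DESeq2 0 with 1 unadjusted, where 0.0193% of all genes were higher).

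Reads that cover a strain variant were compared between the parents in each wild-type cross. In H3K27me3, 1 peak per cluster was tested in each tissue, and in H3K4me3 8 peaks in epiblast and 19 in ExE that lie over the clusters, of which 4 and 13 carry a member's name in the annotation column. None was called imprinted or strain-specific (edgeR), where 0.325% and 1.35% of all H3K27me3 peaks were called imprinted in epiblast and ExE and 0.108% and 0.319% of H3K4me3 peaks, and where 1.01% and 4.32% and, for H3K4me3, 0.841% and 3.96% were called strain-specific. At an unadjusted p below 0.05, 1 H3K27me3 peak passed in each cross in ExE and 1 and 2 H3K4me3 peaks in B6/CAST and CAST/B6 ExE, and 0 in epiblast.

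The HoxB H3K27me3 peak in ExE (chr11:96131500-96695500) had 8035 maternal and 8408 paternal reads in B6/CAST (log2 ratio -0.14, edgeR adjusted p = 0.14) and 11937 and 13308 in CAST/B6 (-0.14, adjusted p = 0.11). These log2 ratios, and those of the H3K4me3 peak below, are edgeR's, after TMM normalization of the library sizes. They are not the ratios of the summed reads. With the library as a block of its maternal and paternal counts, and in a joint fit over both crosses, the HoxB peak was called imprinted with the paternal allele higher, where 1.95% and 7.27% of all H3K27me3 peaks in ExE were called imprinted. The maternal share at this peak was 49.0% and 48.7% in B6/CAST ExE and 47.4% and 47.1% in CAST/B6 ExE, all below the share over all H3K27me3 peaks of the same library (50.6%, 50.1%, 49.2% and 49.1%). The peak reaches 327 kb past the higher end of HoxB, so its reads are not those of the Hox genes alone. An H3K4me3 peak in ExE over Hoxb3 (chr11:96324500-96356000) passed in CAST/B6 alone (205 maternal and 307 paternal reads, -0.54, edgeR adjusted p = 0.025, where 5.95% of peaks passed in that cross) and had 316 and 327 reads in B6/CAST (-0.10, adjusted p = 0.70). It was picked out after its values had been seen.

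**Figure D5:**
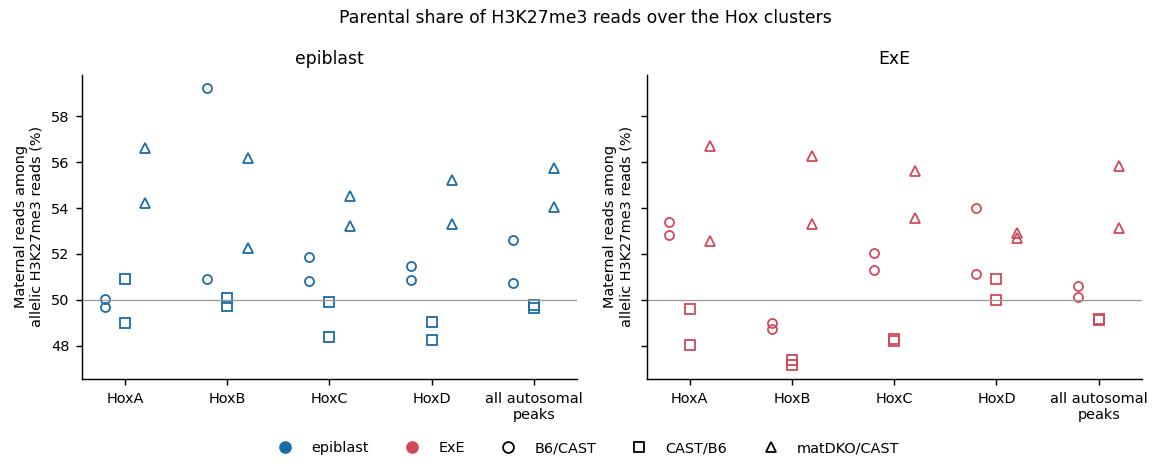
Maternal share of allele-assigned H3K27me3 reads, in percent, in each library over the peaks of the 4 clusters and over all autosomal peaks, by tissue and cross. The vertical axis starts near 47%. Most cluster values lie close to the share over all peaks of the same library, and matDKO/CAST libraries lie above 52% throughout.

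Summed over the whole peaks that overlap the 4 clusters, the maternal share of H3K27me3 reads was 48.2% to 54.2% in the 8 wild-type libraries. It was 49.1% to 52.6% over all peaks. The peaks reach past the clusters, farther in ExE at most ends, so the shares are not those of the Hox genes alone. The share of 54.2% came from B6/CAST epiblast replicate 1, in which HoxB stood at 59.2% (50.9% in replicate 2). In matDKO/CAST it was 53.1% to 55.7%, and 53.1% to 55.8% over all peaks. Reads of matDKO/CAST were split by allele in a pipeline of their own, since the mothers carried 129 alleles, and its part in these shares was not tested.

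The genes of the machinery around the Hox clusters were examined by lists, whose counts stand beside the shares of all genes given above: 1.84% higher and 7.75% lower in ExE for H3K4me3, 5.85% and 9.58% for H3K27me3, and 30.9% and 6.24% for H3K36me3. Of 26 Polycomb genes, 3 were lower and 0 higher in wild-type ExE for promoter H3K4me3, 6 lower and 2 higher for H3K27me3, and 17 higher and 2 lower for H3K36me3, with median log2 differences of -0.13, -0.23 and 0.34 (-0.02, -0.05 and 0.10 for all genes). Phc1, a subunit of canonical PRC1, had 11.4 RPKM of H3K4me3 in epiblast and 2.06 RPKM in ExE (-2.26, limma adjusted p = 0.0018). H3K36me3 on the PRC2 core genes was higher in ExE, by 0.33 for Ezh2, 0.45 for Eed and 0.37 for Suz12 (limma adjusted p 0.0067 to 0.0096). Bmi1, another PRC1 gene, had 4.21 RPKM of H3K27me3 in epiblast and 1.70 RPKM in ExE, and Cbx8, a reader of H3K27me3, 4.76 and 1.37 RPKM (-1.09 and -1.48, limma adjusted p = 0.0037 and 0.0014). Of 10 Trithorax and demethylase genes, 7 were higher for H3K36me3 and 0 lower, 1 (Kmt2c) was lower for H3K27me3, and 0 were called for H3K4me3.

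Of 12 genes that act upstream of Hox activation, 5 were lower and 2 higher for H3K27me3 in ExE, and 4 were lower and 1 higher for H3K4me3. Cdx2, a direct activator of Hox genes and a trophoblast gene, had 7.40 RPKM of H3K27me3 in epiblast and 1.37 RPKM in ExE (-2.05, limma adjusted p = 4.8e-04) and 11.9 and 28.0 RPKM of H3K4me3 (1.24, adjusted p = 0.019). Fgf8 had 3.15 and 5.36 RPKM of H3K27me3 (0.70, limma adjusted p = 0.012) and 22 and 7.38 RPKM of H3K4me3 (-1.57, adjusted p = 0.0023). For H3K36me3 3 of the 12 were higher, near the share of all genes, Cdx2 among them, and Wnt3a was lower. Of 9 genes that flank the clusters, Evx2, a homeobox gene beside Hoxd13, had 13.7 and 7.98 RPKM of H3K27me3 (-0.73, limma adjusted p = 0.040), 0 were called for H3K4me3, and 3 (Skap2, Smug1 and Lnpk) were higher for H3K36me3, again near the share of all genes.

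Sequence content was compared within 1 kb of the start sites. The members held 44 to 194 CG (median 94, against 64 for all genes), with a median ratio of observed to expected CG of 0.61 (0.49 for all genes). Over all genes H3K4me3 went with the number of CG (Spearman rho = 0.84 in epiblast and 0.83 in ExE), and over the 38 members less closely (0.19 and 0.51). Over the members the log2 tissue difference of H3K4me3 had a rho of 0.45 with the number of CG, and that of H3K27me3 a rho of -0.04. Hoxd1, with 143 CG, had the highest H3K4me3 in epiblast (7.68 RPKM), followed by Hoxc4 with 60 CG (7.33 RPKM), Hoxb4 with 94 CG (6.66 RPKM) and Hoxb1 with 59 CG (6.65 RPKM). These are descriptions over 38 genes that share libraries and neighbours.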

How the data were processed

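Published tables of histone modification ChIP-seq (H3K4me3, H3K27me3 and H3K36me3; 51 libraries, 36 of them ChIP) were used. According to the submitters' processing notes, reads were trimmed with Trim Galore 0.4.4 and aligned with Bowtie2 2.3.2 to GRCm38. The study's methods add that reads were split by allele with SNPsplit and that peaks of the wild-type crosses were called with chromstaR. The labels tie both replicates of a cross and tissue to the same peak list. The genome-wide table, as deposited, gives RPKM for each library in adjoining windows of 1 kb along the 19 autosomes. The authors deposited the allelic data as raw read counts per peak and parent. Of the window values summed per gene, 100.0% were whole numbers of reads within 0.1 reads, so reads were recovered from the RPKM for count-based tests. Fold changes in the deposited peak tables were not used.

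Windows were averaged over the promoter (start site of the chosen transcript, 1 kb to each side) or the gene body. The log2 of RPKM plus 0.5 was fitted with limma 3.58.1 (1 coefficient per tissue and cross, fitted to all 12 libraries of the mark, mean-dependent prior), two-sided, with Benjamini-Hochberg adjustment over 20698 autosomal genes or all 5 kb bins. Differences are on the log2 (RPKM + 0.5) scale and understate changes at low values. No filter on low values was applied, so all 38 members were tested. The start used is that of 1 chosen transcript, which lies over 2 kb inside the gene's annotated 5′ end for 11 members (Hoxa7, Hoxa9, Hoxa10, Hoxb3, Hoxb6, Hoxc4, Hoxc5, Hoxc6, Hoxd3, Hoxd4 and Hoxd11, farthest for Hoxc5 with 46.4 kb), and the 5′ end was tried instead. Cluster means were compared by exact permutation tests. Allelic counts were tested with edgeR 4.0.16 (quasi-likelihood, TMM, each cross on its own, at least 20 reads) and a peak passing in both crosses was called imprinted or strain-specific. Peaks were taken as Hox peaks where they overlap a cluster, which was decided after the tables had been seen, besides those that name a member. DESeq2 1.42.0 was run as an alternative, and matplotlib 3.10.9, scipy 1.17.1, pandas 2.3.3, numpy 2.4.6, Python 3.11.15 and R 4.3.3 were used. The fits were tested on simulated data.

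The members, gene lists and tests were chosen with earlier results of these data known. Values in every library are given for the members with the largest and smallest H3K27me3 difference of each cluster and for those called for H3K36me3, other members by range and count. Replicate numbers are shared between tissues by label. For H3K4me3, same-numbered libraries deviated together (r from 0.36 to 0.53), and the blocked value is given beside each H3K4me3 result it changes. Replicates of a group differed beyond sampling noise (chi-square per gene 1.42 to 7.48 over 18 pairs), so none was counted as a duplicate. The 40th and 99th percentiles of 5 kb bins defined the enrichment normalization.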

Additional observations from a re-analysis of the deposited data

Results flagged for a closer look

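Among the 4 wild-type libraries of a tissue, taken over both crosses, 1 library stood far from the other 3 in 7 of 228 combinations of member, mark and tissue. By its definition, for independent values of normal spread, the rule would pick out about 1 in 20 such groups by chance. That rate was not measured here. For H3K27me3 in ExE, Hoxb2 had 3.38 RPKM in B6/CAST replicate 2 (4.21 to 4.26 in the others) and Hoxd9 had 6.20 RPKM in CAST/B6 replicate 1 (5.03 to 5.22 in the others). For H3K36me3 in ExE, Hoxb4 had 0.721 RPKM in CAST/B6 replicate 1 (0.251 to 0.287) and Hoxc8 0.138 RPKM in B6/CAST replicate 1 (0.258 to 0.270). For H3K36me3 in epiblast, Hoxb9 had 0.186 RPKM (0.321 to 0.344) and Hoxd12 0.148 RPKM (0.340 to 0.371) in B6/CAST replicate 1, and Hoxc6 had 0.414 RPKM in B6/CAST replicate 2 (0.315 to 0.323).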

How the results depend on the processing

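Among the alternatives that gave an adjusted p, no called difference of a named member in the wild-type, matDKO/CAST or reciprocal comparison and no H3K27me3 cluster difference changed sign. With library medians equalized the H3K4me3 difference of 3 members that were not called did, from -0.23 to 0.05 at Hoxc6, from -0.08 to 0.20 at Hoxd10 and from -0.18 to 0.11 at Hoxd8, and with them the HoxC median. The split of higher and lower calls turned for H3K4me3 and H3K36me3, as listed below. Where a count below has no share of all genes beside it or in the results above, it shows only how calls moved. Whether the members exceed all genes under that setting cannot be read from it. Of the summary values, 845 stayed within their limits, 135 moved and 8 came to pass the threshold. Of the values of single genes, 346 kept their side of the threshold, 23 came to pass it and 173 no longer passed. Same-numbered libraries of the 2 tissues deviated together more for H3K4me3 than for H3K27me3 (r from -0.17 to 0.10) or H3K36me3 (0.07 to 0.19). With 2 libraries per group, each r rests on a single difference between libraries. For H3K4me3, CAST/B6 and matDKO/CAST share only replicate 2 between the tissues. The study's methods state that each chromatin sample was divided between the antibodies, so the 3 marks can come from the same pools.

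For H3K27me3 in the wild type, 35 members were lower. Over B6/CAST alone 2 and over CAST/B6 alone 14 were, and 12 to 37 with a library left out. In matDKO/CAST 0 were lower, against 3 among genes of at least 1 RPKM, 13 with enrichment normalization, 12 with edgeR and 14 with DESeq2. Of the comparison of matDKO/CAST with B6/CAST epiblast, enrichment normalization called 2. Of the reciprocal comparison in epiblast, at least 1 RPKM called 1, enrichment normalization 1 and DESeq2 4. Cluster differences in RPKM with enrichment normalization were -5.97 (HoxA), -3.90 (HoxB), -5.56 (HoxC) and -4.05 (HoxD), and with a library left out -6.52 to -4.51, -4.29 to -2.94, -6.24 to -4.07 and -4.47 to -2.85. Bins of the clusters lower in ExE (17) numbered 88 with enrichment normalization, 28 with pseudocount 1 and 32 with the replicate block. Flanking bins lower (22) numbered 47 with enrichment normalization, and those higher (20) 35 with it and 39 with the block.

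For H3K4me3 in the wild type, 2 were lower, against 6 with at least 1 RPKM, 4 with enrichment normalization, 7 with edgeR, 6 with DESeq2, 1 with the replicate block, 1 with input subtracted, 4 at the 5′ end, 0 over B6/CAST alone (2% of all genes), 0 over CAST/B6 alone (4.37%), 8 over all 3 crosses (11.1%) and 0 to 2 with a library left out. Members higher (0) numbered 6 with at least 1 RPKM, 3 with enrichment normalization, 14 with medians equalized, 13 with edgeR, 11 with DESeq2, 2 with input subtracted and 0 to 1 with a library left out. In matDKO/CAST 4 were lower, against 2 with pseudocount 0.1, 13 with at least 1 RPKM, 7 with enrichment normalization, 7 with medians equalized, 15 with edgeR, 11 with DESeq2, 0 with the replicate block and 0 to 3 with a library left out, and medians equalized called 3 higher. Reciprocal crosses (0 called in either tissue) gave 14 in epiblast and 15 in ExE with at least 1 RPKM, 13 and 9 with enrichment normalization, 19 and 14 with medians equalized, 35 and 28 with edgeR, 31 and 24 with DESeq2, and 1 in ExE with input subtracted. For these and the matDKO/CAST alternatives, shares of all genes are given only for the reciprocal counts with edgeR and DESeq2, above. Bins of the clusters lower (9) numbered 4 with enrichment normalization and 1 with the block, flanking bins lower (9) 3 with the block, and flanking bins higher (0) 3 with enrichment normalization.

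For H3K36me3 in the wild type, 1 was lower, against 0 with enrichment normalization, 8 with edgeR, 5 over B6/CAST alone (8.57% of all genes) and 0 over CAST/B6 alone (0.879%). Members higher (2) numbered 0 with pseudocount 0.1, 5 with enrichment normalization, 0 with medians equalized, edgeR, DESeq2 or B6/CAST alone, 1 with the replicate block, CAST/B6 alone or all 3 crosses, and 0 to 2 with a library left out. Of all genes 30.6% were higher over B6/CAST alone, 3.76% over CAST/B6 alone and 36% over all 3 crosses. In matDKO/CAST 1 was lower, against 0 with edgeR or DESeq2, 2 with the replicate block, 3 with input subtracted and 0 to 2 with a library left out, and 0 were higher, against 1 with pseudocount 0.1 and 0 to 1 with a library left out. Enrichment normalization called 1 member in matDKO/CAST against B6/CAST epiblast. In the reciprocal comparison of ExE (5) pseudocount 0.1 gave 0, medians equalized 2, edgeR 15, the replicate block 0, input subtracted 10, and leaving a library out 0 to 7. Cluster bins higher (0) numbered 1 with enrichment normalization, and flanking bins higher (3) 1 with it and 1 with the block.

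The count of imprinted H3K27me3 peaks in ExE (0) was 1 with the replicate block (the library) and 1 in the joint fit, and 1 promoter lay in an H3K36me3 peak of CAST/B6 ExE with promoters of 2 kb. The cause of these changes was not tested. H3K36me3 libraries go down to 2.09 M reads and the median over members lies below or within the range of the inputs, and with 2 libraries per group calls near the threshold rest on single libraries.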
